A study of Mus musculus with 2 samples.

Results

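The forkhead (Fox) genes encode transcription factors that share a winged-helix DNA-binding domain, the forkhead box, and are sorted by sequence into lettered subfamilies. Members were chosen as every probe set that names a single gene whose symbol starts with Fox, a subfamily letter from a to s and a number. They were 44 of the 19946 genes measured, carried by 46 probe sets and spread over 18 subfamilies. Of the 44, 43 are forkhead genes and the remaining one, Foxl2os, is a non-coding transcript from the strand opposite Foxl2. Where a gene had more than 1 probe set, the one with the highest mean over the arrays was used.

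The samples were 2 cultures of mouse embryonic fibroblasts, the mesenchymal cells that grow out of a dissociated embryo. Both had been infected with an adenovirus that expresses LacZ, a bacterial enzyme gene used as a control cargo, and were kept in DMEM with 1% FBS. One culture received DMSO, the solvent, and the other Celastrol at 250 nM, a triterpenoid from the thunder god vine, for 7 h. The labels leave out the strain, the passage, the embryonic age and how many embryos were pooled. Each condition has 1 array, so a difference has no replicate check and no p-value is given, and treatment, culture dish and array cannot be separated.

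Values are log2 RMA values, and a difference is always the celastrol value minus the DMSO value. A gene counted as detected when it exceeded 5.73 in at least 1 array, a limit set at the 95th percentile over 1210 receptor probe sets (olfactory and vomeronasal genes, which belong to sensory neurons). Of 19946 genes, 13902 were detected. The central 95% of those receptor probe sets differed by -0.42 to 0.41 between the arrays, a range used here as a description of scatter between dim probe sets and not as an error of a gene. Probes differ between genes, so the order of values of different genes is no order of expression. A list's summed linear value, 2 raised to each marker's value and added up, is compared only between the arrays. Of 14 fibroblast markers 13 were detected, with Vim, Fn1 and Prrx1 at 13.85, 13.42 and 12.36 in DMSO, and Lum, a matrix proteoglycan, was not (4.15 and 4.04). Thy1, a common fibroblast surface marker, lay near the limit at 6.19 and 6.02. Of the 13 detected, 9 were lower with celastrol and 4 higher, with a median difference of -0.24, and their list summed to 53679 with DMSO and 49448 with celastrol. S100a4 (-0.88) and Postn (-0.61) were the 2 that were at least 1.5-fold lower. Over all detected genes, 51.9% were lower by any amount and 4.68% were at least 1.5-fold lower.

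Forkhead factors work in very different ways. FOXO proteins are switched off when AKT phosphorylates them and adaptor proteins hold them in the cytoplasm, so growth factor withdrawal or stress turns them on without new transcription. FOXM1 drives genes of mitosis and is itself made in dividing cells. FOXC, FOXD1 and FOXF factors pattern embryonic mesenchyme, the tissue fibroblasts come from, while FOXA, FOXI, FOXN1 and FOXP3 are known from epithelia and lymphocytes.

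Of the 44 members 37 were detected, all 37 in both arrays, where 13902 of all 19946 genes were detected in at least 1 array. Of the 37 members, 22 lay within 2 log2 units of the limit in at least 1 array. Only Foxc2 among the 37 was at least 2-fold higher with celastrol, where 1.88% of all detected genes were. No member was at least 2-fold lower, against 0.662% of all detected genes. At 1.5-fold the counts were again 1 higher and 0 lower, against 6.19% and 4.68% of all detected genes. The median difference of the 37 was -0.10, beside -0.01 over all detected genes, and 20 of the 37 were lower by any amount, a share of 54.1% against 51.9%. The difference without its sign had a median of 0.20 in the members and 0.20 in all detected genes. Differences under 1.5-fold in either direction made up 97.3% of the detected members (36 of 37) and 89.1% of all detected genes. Above the receptor range lay 3 members (Foxc2, Foxj3 and Foxd3) and below it 2 (Foxo4 and Foxj2), where 11.2% and 10.5% of all detected genes did. The counts in either direction are thus small and near those of genes at large, and what can be described is which single members stand apart.

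**Figure D1:**
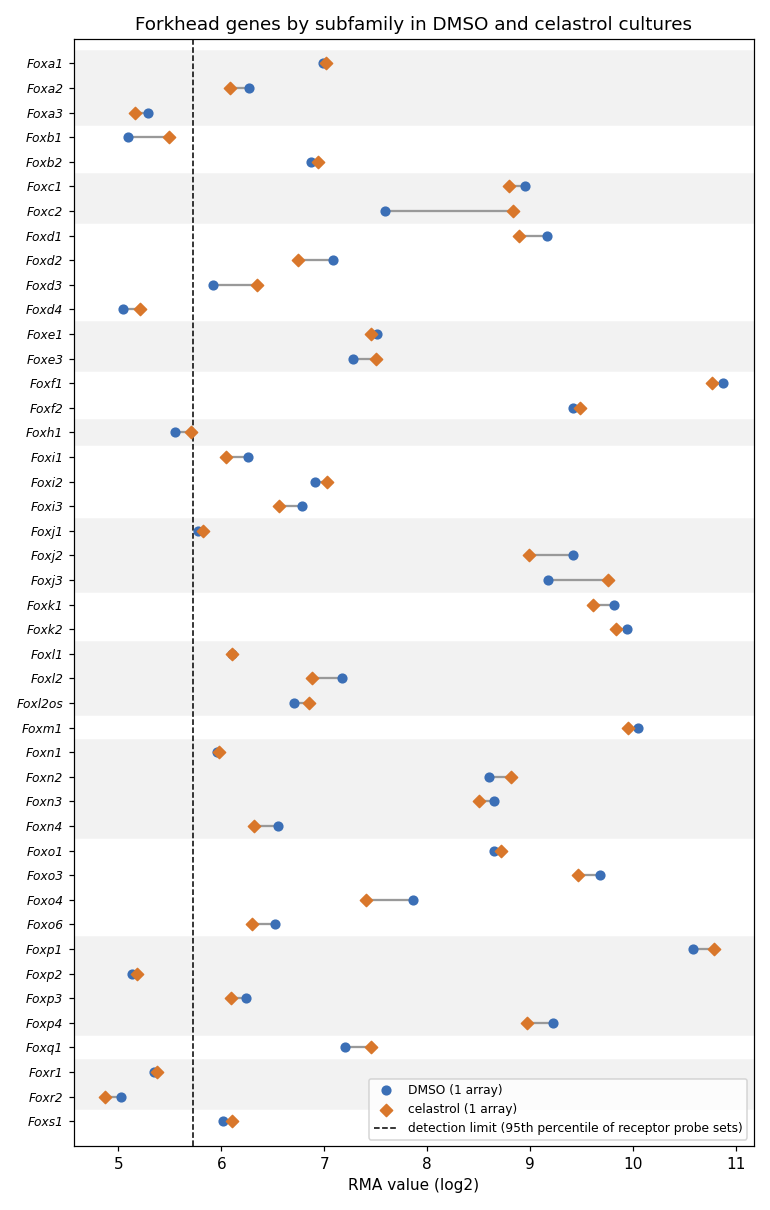
RMA values (log2, horizontal axis) of all 44 members in order of subfamily, with circles for the DMSO array, diamonds for the celastrol array and a dashed line at the detection limit of 5.73. Circle and diamond lie close together for most genes, and the widest gap is that of Foxc2, from 7.59 to 8.84.

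FOXC1 and FOXC2 are close relatives that act in somites, vessels, heart and eye, and FOXC2 is also known from adipose tissue. Foxc2 (probe set 10576051) measured 7.59 under DMSO and 8.84 under celastrol, a difference of 1.24 or 2.37-fold, the largest of the family. Its DMSO value exceeded the detection limit by 1.87, so the higher value did not start from an undetected level. Foxc1 went the other way by a small amount, from 8.95 to 8.79 (-0.16). The subfamily therefore has 1 member far above the receptor range and 1 inside it.

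The table of RefSeq genes places Foxc2 among other forkhead genes, which gives a comparison that sequence relationship does not. Foxf1 and Foxl1 are its forkhead neighbours, Foxl1 directly and Foxf1 with the gene Mthfsd between. Foxf1 differed by -0.11, Mthfsd by -0.18 (9.39 with DMSO, 9.21 with celastrol) and Foxl1 by 0.00. All of these lie within the receptor range, so in that cluster a value above that range was seen for Foxc2 alone. Foxl1 was dim at 6.11 in both arrays, and RMA compresses differences of dim probe sets. A second cluster holds Foxq1, Foxf2 and Foxc1 with no protein-coding gene between them, and its differences were 0.26, 0.07 and -0.16. Foxd2 and Foxe3 are also adjacent and differed by -0.33 and 0.22. Of the forkhead genes in these clusters only Foxc2 lay outside the receptor range, so no pair could have both members outside it.

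**Figure D2:**
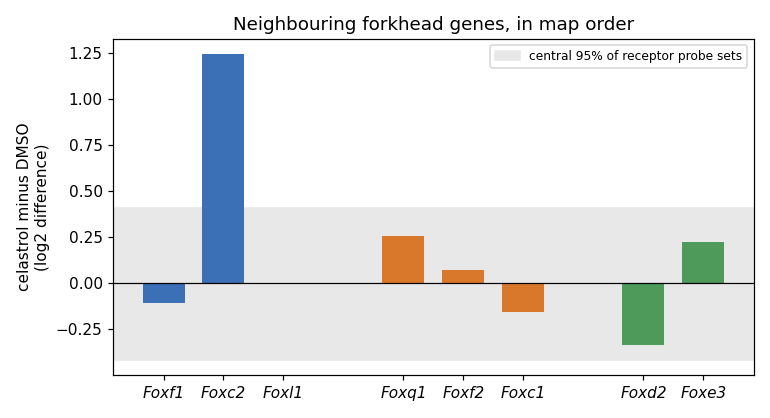
Celastrol minus DMSO (log2 difference, vertical axis) of forkhead genes that neighbour each other, in map order within each of 3 clusters shown by colour, with the central 95% of receptor probe sets in grey. Foxc2 reaches 1.24 while Foxf1 (-0.11) and Foxl1 (0.00) beside it stay in the grey band, as do the members of the other clusters.

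Genes known as targets or partners of FOXC and FOXF factors in mesenchyme showed no shared direction. Of 15 detected members of that list (19 measured of 20) 8 were higher and 7 lower, with a median of 0.05 beside -0.01 over all detected genes. At least 2-fold lower was 1 of 15, where 0.662% of all detected genes were, and 0 were 2-fold higher, where 1.88% were. Foxo1, itself a member of the family, is among the 15. Cxcl12, the chemokine that guides cells carrying CXCR4, was 11.74 with DMSO and 10.59 with celastrol, 2.21-fold lower. Adamts1, a secreted protease, followed at -0.65 and Pdgfrb, the receptor of mural cells and fibroblasts, at -0.41. Tbx1, Twist1 and Notch1, regulators of embryonic mesenchyme and cell fate, had the highest values at 0.55, 0.48 and 0.40. Endothelial markers, which would accompany FOXC2 or FOXF1 of vessel cells, were detected for 4 of 10 genes, and their summed linear value was 584 with DMSO and 591 with celastrol. The detected ones were Egfl7 (7.22 and 7.05), Vwf (6.40 and 6.48), Tie1 (6.19 and 6.22) and Cdh5 (5.62 and 5.77). Pecam1 (5.32 and 5.69), Kdr (5.24 and 5.34) and Tek (5.22 and 5.20) lay under the limit in both arrays. In a bulk culture, a change in the number of cells of a type and a change of RNA per cell cannot be told apart.

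Foxj3 and Foxj2, factors that are expressed in many tissues, differed in opposite directions. Foxj3 (probe set 10507657) was 9.18 with DMSO and 9.76 with celastrol, a difference of 0.58 or 1.495-fold, just under the 1.5-fold threshold. With quantile normalization, a lowess trend or the median difference taken out, Foxj3 passed that threshold. Foxj2 (probe set 10541532) was 9.42 and 8.99, a difference of -0.424, just below the receptor range, whose lower bound is -0.416. Foxj1, the master factor of motile cilia, lay at the limit with 5.77 and 5.82. Among 9 markers of ciliated cells 3 were detected: Mcidas (7.06 and 6.96), Ccdc40 (6.36 and 6.28) and Rsph1 (5.89 and 5.80). The whole list had a summed linear value of 523 with DMSO and 506 with celastrol. The axonemal dynein genes Dnah5 and Dnah9 stayed under the limit at 5.25 and 5.21 in DMSO.

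The start-site sequences of this opposed pair are shown first, as the 250 bases before the RefSeq start site in GRCm38.p6, 5′ to 3′ on the gene's strand. Capitals mark the letters searched for, here GGGCGG, the GC box, on either strand, which is CCGCCC when read on the shown strand. The Foxj3 window is chr4:119539411-119539660 on the plus strand and the Foxj2 window is chr6:122819934-122820183 on the plus strand.
Foxj3: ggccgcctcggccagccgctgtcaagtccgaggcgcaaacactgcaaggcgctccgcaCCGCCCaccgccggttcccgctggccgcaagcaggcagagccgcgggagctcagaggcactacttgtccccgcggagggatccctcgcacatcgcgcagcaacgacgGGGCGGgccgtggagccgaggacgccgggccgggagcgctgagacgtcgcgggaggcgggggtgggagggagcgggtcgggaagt
Foxj2: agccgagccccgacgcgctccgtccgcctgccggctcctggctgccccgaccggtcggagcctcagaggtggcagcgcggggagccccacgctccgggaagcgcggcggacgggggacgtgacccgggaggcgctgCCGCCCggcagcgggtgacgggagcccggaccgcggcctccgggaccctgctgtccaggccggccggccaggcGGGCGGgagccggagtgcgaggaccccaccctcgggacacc
Both windows are rich in G and C (74.4% and 80.4%), and each holds 2 GC boxes and none of the other letters searched.

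The other pair shown is Foxd3, the third member above the receptor range, and Foxc1, the relative of Foxc2 that did not share its higher value. The Foxd3 window is chr4:99656049-99656298 and the Foxc1 window is chr13:31806396-31806645, both on the plus strand. In Foxd3 the capitals join an antioxidant response element, TGACNNNGC on the opposite strand, which reads GCNNNGTCA here, and an overlapping E-box, CACGTG. In Foxc1 they mark a CCAAT box on the opposite strand, which reads ATTGG here, and a GC box.
Foxd3: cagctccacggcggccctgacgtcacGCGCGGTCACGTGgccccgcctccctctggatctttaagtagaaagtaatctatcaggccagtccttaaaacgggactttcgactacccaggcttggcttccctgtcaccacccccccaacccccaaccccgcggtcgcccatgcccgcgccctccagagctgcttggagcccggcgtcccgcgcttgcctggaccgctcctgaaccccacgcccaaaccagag
Foxc1: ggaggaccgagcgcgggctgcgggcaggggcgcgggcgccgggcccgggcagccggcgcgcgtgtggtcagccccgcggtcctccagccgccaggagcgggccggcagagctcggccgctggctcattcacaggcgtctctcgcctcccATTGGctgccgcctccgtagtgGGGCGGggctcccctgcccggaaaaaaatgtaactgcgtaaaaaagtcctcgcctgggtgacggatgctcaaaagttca

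RefSeq windows were matched for 29 of the 44 members, 34 windows in all, and Foxc2 and Foxo4 were not among them. The windows were compared with all 32851 windows of the same length, searching both strands. Start sites of forkhead genes had a median of 62.4% G and C and 6.60 CpG per 100 bases, against 52.4% and 2.40 over all windows. A GC box was present in 24 of the 34 (70.6%), against 32.7% of all windows, and a CCAAT box in 14 (41.2%), against 33.8%. The letters of the GC box are all G or C, and the part of base composition in its share was not tested. Foxa2, Foxp1 and Foxp3 had more than 1 window each, and each window was counted. The forkhead letters TGTTTAC were found in 1 window, that of Foxa1 (2.94%, against 3.17% of all). Heat shock letters GAANNTTC were found in 1 window, that of Foxd1 (2.94%, against 6.69%), and TTCNNGAA in 0 (against 7.17%). The antioxidant letters TGACNNNGC were found in 2, Foxd3 and Foxn4 (5.88%, against 10.2%), the ATF4 composite letters TGATGCAA in 0 (against 0.792%) and CACGTG in 1, that of Foxd3 (2.94%, against 6.02%). These are matches of letters in a fixed window and say nothing on binding.

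FOXD factors act in neural crest, kidney stroma and somites. Foxd1, a marker of stromal progenitors, was 9.17 with DMSO and 8.90 with celastrol (-0.27). Foxd2 was 7.08 and 6.75 (-0.33). Foxd3, a neural crest and stem cell factor, was dim at 5.92 and 6.34, a difference of 0.42 that lies just above the receptor range. The subfamily's members thus differed both ways, with a median of -0.27 over the 3 detected. Foxd4 was under the limit at 5.05 and 5.21. Among neural and neural crest markers 5 of 9 measured were detected. Sox10, which neural crest cells express, was 6.25 and 6.47, and Sox2 was under the limit at 4.24 and 4.42. Nes, Map2 and Tubb3 gave 8.63, 8.02 and 6.41 in DMSO, and the summed linear value of the list was 1015 with DMSO and 1057 with celastrol. The part of other cells in the Foxd3 difference was not tested.

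FOXF1 and FOXF2 are set by Hedgehog signals in the mesenchyme of gut and lung. Foxf1 was 10.87 with DMSO and 10.77 with celastrol on its brighter probe set (-0.11), and 10.58 and 10.57 on the other (-0.01). Foxf2 was 9.41 and 9.49 (0.07). Foxl1, another Hedgehog-responsive factor of gut mesenchyme, was 6.11 in both arrays. None of these 3 differed beyond the receptor range.

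The genes of the Hedgehog list, by contrast with those factors, tended to have lower values. Of 13 detected genes (15 measured of 16) 9 were lower and 4 higher, where 51.9% of all detected genes were lower. At least 2-fold lower was 1 of 13, against 0.662% of all detected genes, and at least 1.5-fold lower were 4, against 4.68%. The median of -0.39 stands beside -0.01 over all detected genes, and becomes -0.23 with no detection limit. The fibroblast markers were lower as well (median -0.24), and their part in these values was not tested. Bmp4, a signal that Hedgehog and forkhead factors share in gut mesenchyme, was 11.23 with DMSO and 10.20 with celastrol, 2.05-fold lower. Boc, a co-receptor, was 1.78-fold lower (8.54 and 7.71). Smo, the signal transducer, was 1.56-fold lower (11.22 and 10.58). The co-receptor Gas1 was also lower (-0.63), while the pathway's output gene Gli1 differed by -0.23 and Ptch1, receptor and output, by -0.39, both within the receptor range. Hhip, an inhibitor that the pathway induces, Disp1, which releases the ligand, and the ligand gene Shh had the highest values at 0.25, 0.23 and 0.16. The ligand genes Shh (6.03 and 6.20) and Ihh (6.59 and 6.60) were close to the limit, and Dhh was under it.

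**Figure D3:**
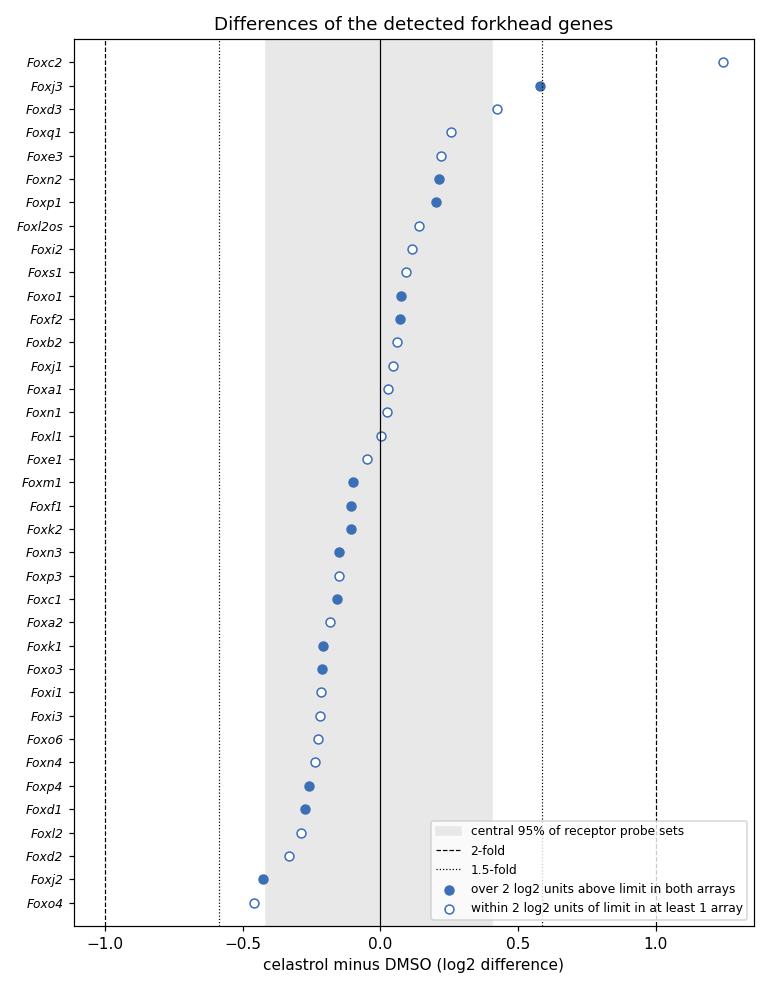
Celastrol minus DMSO (log2 difference, horizontal axis) of the 37 detected members in order of size, with the central 95% of receptor probe sets in grey and lines at 1.5-fold and 2-fold. Filled points lie over 2 log2 units above the detection limit in both arrays. Foxc2 is the single point past a 2-fold line, Foxj3 lies just inside the 1.5-fold line, and 32 points are in the grey band.

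The FOXO transcripts were lower in 3 of 4 members, by small amounts, where 51.9% of all detected genes were lower. Foxo1, the insulin-responsive factor of liver and muscle, was 8.65 with DMSO and 8.72 with celastrol (0.07). Foxo3, a factor of stress resistance and atrophy, was 9.68 and 9.47 (-0.21). Foxo4 (probe set 10601091) was 7.86 and 7.40, a difference of -0.46 or 1.37-fold lower, the lowest of the family and below the receptor range. Foxo6, known mainly from brain, was 6.53 and 6.30 (-0.23). The subfamily median was -0.22. Since FOXO activity is set at the protein, these RNA levels do not measure it.

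Genes that feed into FOXO through insulin receptor, PI3K and AKT went both ways. Of 16 detected genes (18 measured of 20) 9 were higher and 7 lower, with a median of 0.06. Irs2, an insulin receptor substrate, was 8.24 with DMSO and 8.87 with celastrol, 1.55-fold higher. Sgk1, a kinase that phosphorylates FOXO3, was 9.77 and 10.38, 1.53-fold higher. Those were 2 of 16 at 1.5-fold, where 6.19% of all detected genes were, and 0 were 1.5-fold lower, where 4.68% were. Insr stood at 0.55 on its brighter probe set and 0.22 on the other. Pik3r1, the regulatory PI3K subunit, was lowest at -0.52, followed by Akt2 at -0.45 (-0.29 on its second probe set) and Akt1 at -0.32.

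Proteins that bind or modify FOXO factors showed a similar spread. Of 21 detected genes (21 measured of 22) 11 were higher and 10 lower, with a median of 0.04, where 51.9% of all detected genes were lower. At least 2-fold higher was 1 of 21 and at least 1.5-fold higher were 3, where 1.88% and 6.19% of all detected genes were. At least 1.5-fold lower were 0, where 4.68% were. Mdm2, a ubiquitin ligase of p53 that also acts on FOXO proteins, was 8.96 and 10.09, 2.19-fold higher. Ywhag, a phosphoserine-binding adaptor of the family that holds FOXO in the cytoplasm, was 11.07 and 11.94, 1.83-fold higher. The other Ywha genes lay between -0.22 (Ywhah) and 0.08 (Ywhaz). Sirt1, a deacetylase of FOXO proteins, was 8.87 and 9.46, 1.51-fold higher. Prmt1 and Crebbp, a methyltransferase and an acetyltransferase, and Skp2, a ubiquitin ligase subunit that acts on FOXO1, were lowest at -0.28, -0.28 and -0.26.

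FOXO target genes had no single direction. Of 31 detected (34 measured of 35) 19 were higher and 12 lower, with a median of 0.17 beside -0.01 over all detected genes. At least 2-fold higher were 4 of 31, where 1.88% of all detected genes were, and 0 were 2-fold lower, where 0.662% were. These 4 were Ppargc1a (2.75-fold), the coactivator of mitochondrial genes, Bnip3 (2.61-fold), a mitophagy receptor, Gadd45a (2.45-fold), a DNA damage response gene, and Gabarapl1 (2.17-fold), an autophagy protein. Each of them is also known as a target of other stress-responsive factors, and the part of FOXO or of any other factor in these values was not tested. Lowest were Rbl2, the retinoblastoma relative p130, at 8.63 and 7.89 (-0.75), Txnip at 10.34 and 9.65 (-0.69) and Sesn1 at 9.53 and 8.97 (-0.56). Sod2 and Prdx3, mitochondrial antioxidant enzymes, were at -0.54 and -0.42, and Cat, the peroxisomal one, was at 0.17. The cell cycle inhibitor Cdkn1b and the pro-apoptotic Bcl2l11, the targets most often used to read FOXO3, stood at 0.31 and 0.27, within the receptor range. Ccng2 and Fbxo32 were at 0.02 and 0.01.

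FOXK1 and FOXK2 are broadly expressed repressors and activators of autophagy and glycolysis genes. Foxk1 was 9.82 with DMSO and 9.61 with celastrol (-0.21), and Foxk2 was 9.94 and 9.83 (-0.11). Both members were lower, where 51.9% of all detected genes were, and neither left the receptor range. In the list of their partners and targets 10 of 21 detected genes were higher and 11 lower (21 measured of 22), with a median of -0.01. At least 1.5-fold higher were 2 and at least 1.5-fold lower was 1, where 6.19% and 4.68% of all detected genes were. Dvl2, a Wnt pathway protein that FOXK factors carry into the nucleus, was 8.83 and 9.76, 1.91-fold higher, whereas Dvl1 and Dvl3 were at -0.24 and -0.08. Hk2, hexokinase, was 1.59-fold higher (7.91 and 8.58) and Map1lc3b, an autophagosome protein, stood at 0.38. Ulk2, an autophagy kinase, was 8.42 and 7.45, 1.96-fold lower, while its relative Ulk1 was at 0.24. Sin3a, the co-repressor that binds FOXK1, was at -0.47 and Asxl1, of the deubiquitinase complex FOXK factors recruit, at -0.46.

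FOXM1 is the forkhead factor of proliferating cells. Foxm1 (probe set 10542079) was 10.05 with DMSO and 9.95 with celastrol, a difference of -0.10. Most of its target genes were also lower. Of 24 detected targets (24 measured of 25) 21 were lower, a share to set against 51.9% of all detected genes, and the median was -0.29. At least 1.5-fold lower were 3 of 24, where 4.68% of all detected genes were, and 0 were 2-fold lower, where 0.662% were. Ccnb2, a mitotic cyclin, was 11.52 and 10.77, 1.68-fold lower. Aurkb, the chromosomal passenger kinase, was 11.02 and 10.36, 1.58-fold lower, and Ccna2, cyclin A2, was 11.93 and 11.32, 1.52-fold lower. Cenpf, Nek2 and Aurka, a kinetochore protein and centrosomal kinases, were the 3 higher members at 0.47, 0.46 and 0.10. Genes of mitosis move with the share of dividing cells, whose part was not tested, nor was that of the lower fibroblast markers (median -0.24).

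The complexes that act with or upstream of FOXM1 did not share that direction. Of 18 genes of the DREAM and MuvB complexes, E2F factors and their kinases, all detected, 10 were higher and 8 lower, with a median of 0.02. Over all detected genes 51.9% were lower. At least 1.5-fold higher were 0 of the 18 and at least 1.5-fold lower were 2, where 6.19% and 4.68% of all detected genes were. Mybl2, which binds MuvB before FOXM1 does, was 9.21 and 9.62 (0.41), and the MuvB subunits Lin52 and Lin54 stood at 0.37 and 0.28. Rbl2 was lowest, followed by Fzr1, which directs FOXM1 to degradation, at 9.99 and 9.33 (1.58-fold lower). E2f8, a repressor of the cell cycle, was at -0.37, and Cdk1, the mitotic kinase, at -0.17.

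FOXP factors repress transcription in lung, heart, brain and lymphocytes. Foxp1 was 10.59 with DMSO and 10.79 with celastrol (0.20) and Foxp4 was 9.23 and 8.97 (-0.26). Foxp2, the speech-associated factor of brain and lung, was under the limit at 5.13 and 5.18. Foxp3, the factor of regulatory T cells, was near the limit at 6.24 and 6.09 (-0.15). Of 8 T cell markers measured 2 were detected, with a summed linear value of 587 and 505. Cd3e was near the limit at 6.15 and 6.35, while Cd4, Il2ra and Ctla4 were under it. Ikzf2, which is also expressed outside T cells, was detected at 8.16 and 7.54. Of 13 detected FOXP partners (14 measured of 15) 4 were higher and 9 lower, where 51.9% of all detected genes were lower. Their median was -0.07, beside -0.01 over all detected genes. None was at least 1.5-fold higher or lower, where 6.19% and 4.68% of all detected genes were. Foxp3, itself a member of the family, is also in that list. Gatad2b, Ctbp2 and Gatad2a, co-repressor subunits, were highest at 0.19, 0.10 and 0.10. Nfatc4, Ctbp1 and Nfatc2 were lowest at -0.41, -0.32 and -0.31.

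FOXN2 and FOXN3 are broadly expressed, and FOXN3 acts as a checkpoint repressor. Foxn2 was 8.60 with DMSO and 8.81 with celastrol (0.21). Foxn3 was 8.65 and 8.50 (-0.15) on its brighter probe set and 7.93 and 7.99 (0.06) on the other, so its sign depends on the probe set. Foxn1, the factor of thymic epithelium and hair, was 5.96 and 5.98, and Foxn4, a retinal progenitor factor, was 6.55 and 6.31 (-0.24). None of the 4 left the receptor range, and their median was -0.06. Epithelial markers all passed the limit in at least 1 array, 8 of 8, at values from 5.65 to 6.96 in DMSO. The brightest were Krt8 at 6.96, Trp63 at 6.92 and Krt18 at 6.19, and the list had a summed linear value of 596 and 574. Psmb11 (5.65 and 5.87) and Krt5 (5.67 and 5.89) passed the limit of 5.73 only in the celastrol array. Dsp lay at the limit with DMSO (5.74), so detection of these markers is weak. Of 13 detected cilia and checkpoint genes (19 measured of 20) 4 were higher and 9 lower, where 51.9% of all detected genes were lower. Their median was -0.10, beside -0.01 over all detected genes. None was at least 1.5-fold higher or lower, where 6.19% and 4.68% of all detected genes were. Ccno, Rpa1 and Mcm2 were highest at 0.48, 0.39 and 0.23, and Sin3a, Rfx2 and Rfx3 lowest at -0.47, -0.14 and -0.13.

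The remaining detected members are known from epithelia, gonad, eye or brain, and all of them lay within 2 log2 units of the detection limit in both arrays. FOXA factors open chromatin in liver and gut: Foxa1 was 6.99 with DMSO and 7.01 with celastrol, and Foxa2 was 6.27 and 6.08. Foxb2, of the developing brain, was 6.88 and 6.94. Foxe1, a thyroid factor, was 7.51 and 7.46, and Foxe3, a lens factor, was 7.28 and 7.50. These members differed by at most 0.22 in either direction. The FOXI factors of inner ear and ectoderm gave 6.26 and 6.05 for Foxi1, 6.91 and 7.03 for Foxi2, and 6.78 and 6.56 for Foxi3, a subfamily median of -0.22. Foxl2, the ovarian factor, was 7.17 and 6.88 (-0.29), whereas Foxl2os on the opposite strand was 6.71 and 6.85 (0.14). Foxq1, an epithelial and hair factor, was 7.20 and 7.46 (0.26), and Foxs1, found in vessel-associated cells, was 6.01 and 6.11. All of these differences lie inside the receptor range.

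Tissue markers that go with those factors were mostly under or near the limit. Of 9 endoderm markers measured 4 were detected, and Alb, Afp and Ttr, of liver, were under it in both arrays (5.23, 5.36 and 4.86 in DMSO). Gata4, which mesenchymal and heart cells also express, was the exception (8.90 in DMSO, 10.15 in celastrol). Its 2.38-fold higher value raised the summed linear value of that list from 875 to 1555. Apoa1 and Hnf4a were 6.41 and 6.38 in DMSO. Of 7 gonad and germ cell markers 2 were detected, Nr5a1 (6.39 and 6.56) and Amh (5.83 and 5.67), with Zp3 under the limit at 5.55 and 5.52, and the list summed to 304 and 295.

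Under the limit in both arrays were 7 members: Foxa3, Foxb1, Foxd4, Foxh1, Foxp2, Foxr1 and Foxr2. Foxh1, which binds SMAD proteins in nodal signalling, came closest at 5.55 with DMSO and 5.71 with celastrol. Foxr1 and Foxr2, known from germ cells and embryo, were 5.34 and 5.37 and, for Foxr2, 5.03 and 4.87. Foxb1 was 5.10 and 5.49, the largest difference of the 7 at 0.39. Foxa3 was 5.29 and 5.16. These values do not show whether the transcripts are absent or few. Of 11 detected genes of nodal signalling (14 measured of 16) 8 were higher and 3 lower, where 51.9% of all detected genes were lower. Their median was 0.07, beside -0.01 over all detected genes. Smad4, Smad2 and the activin receptor gene Acvr2a were highest at 0.32, 0.25 and 0.24. Tdgf1, the nodal co-receptor, was 5.93 with DMSO and under the limit with celastrol (5.36), and Acvr1b, an activin receptor gene, was at -0.50 and Gsc at -0.04.

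**Figure D4:**
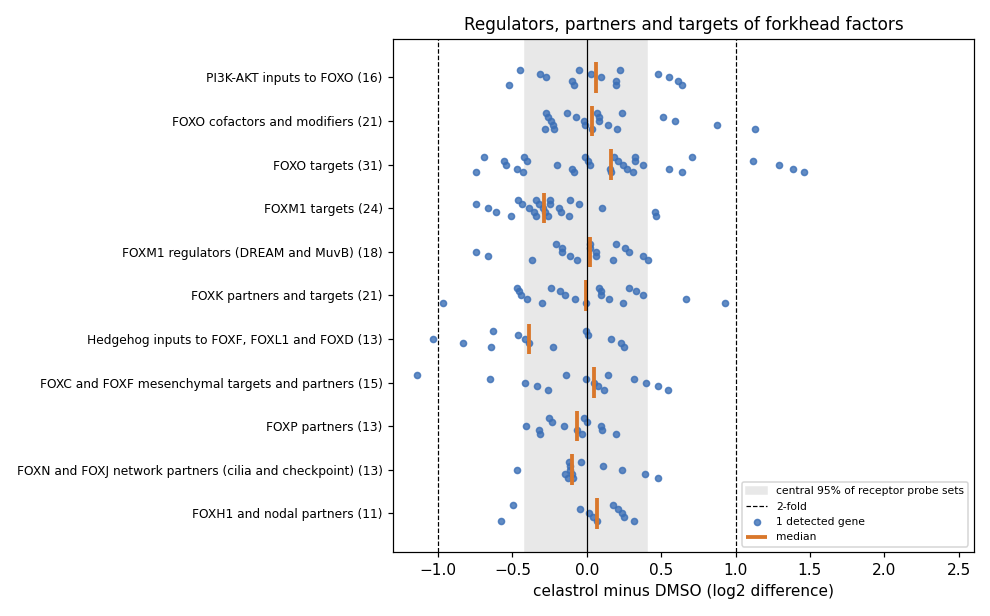
Celastrol minus DMSO (log2 difference, horizontal axis) for each detected gene (points) of 11 lists of regulators, partners and targets of forkhead factors, with the list median as a bar, the number of detected genes in brackets and the receptor range in grey. The medians run from -0.39 for the Hedgehog list and -0.29 for FOXM1 targets to 0.17 for FOXO targets, and most points of every list are in the grey band.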

How the data were processed

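The authors deposited log2 values per probe set, made with RMA (background correction, quantile normalization and probe set summary), a tool named per the submitters' processing notes. For the version and settings of RMA, the sources used here give nothing. The log2 scale was read from the values (2.73 to 14.52). RMA compresses differences of dim probe sets. Platform annotation named 1 gene for 21797 of 35556 probe sets, several for 1613 and none for 12146. All 44 members matched the GRCm38.p6 gene table by Entrez identifier, and 0 forkhead probe sets named several genes. With 1 array per group no test was run, and their number limits the precision.

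Members and the 11 pathway and 8 marker lists were chosen with earlier results of these data known, and 11 genes are in more than 1 pathway list. Named genes were all members, with up to 3 highest and 3 lowest genes of a pathway list and up to 3 markers of the highest value in a marker list. Other genes named were chosen after their values were seen. A summed linear value is the sum of 2 raised to each measured marker's value. Gene counting was run on simulated data with planted differences well past the 2-fold threshold and a narrower scatter than in the data. That run checks the code and does not measure how reliable the counts are. Alternatives were other detection limits, averaging of probe sets, quantile normalization, a lowess trend (fraction 0.3) or the median difference subtracted, and other choices of members. Scripts ran under Python 3.11.15 with pandas 2.3.3, numpy 2.4.6, statsmodels 0.14.6 and matplotlib 3.10.9.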

Additional observations from a re-analysis of the deposited data

How the results depend on the processing

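Of 301 recalculated values, 297 moved by less than 0.21 on the log2 scale (the standard deviation of receptor probe sets) or, for counts, by at most 1.5 times. The number of members at least 1.5-fold higher rose to 2 with quantile normalization, to 2 with the lowess trend subtracted and to 2 with the median difference subtracted, the added gene being Foxj3. The Foxd median moved to -0.055 with no detection limit, because Foxd4 then entered. The Hedgehog median ranged from -0.40 to -0.23, the latter with no detection limit. Foxc2 ranged from 1.24 to 1.30, and the count at 2-fold stayed at 1 under all 9 alternatives. Foxd3 and Foxj2 did not stay outside the receptor range of the main values (-0.416 to 0.407). Foxd3 was 0.400 with quantile normalization and 0.406 with the lowess trend subtracted. Foxj2 was -0.401 and -0.361 with those, and -0.410 with the median difference subtracted. The receptor range itself was not recalculated for these settings. Detected members numbered 30 with the stricter limit and 44 with none, and the stricter limit left under 3 detected members for a Foxi, Foxj or Foxp median. Differences near 0 changed sign for Foxl1 (-0.02 to 0.02), Foxn1 (0.00 to 0.04) and the FOXK list (-0.02 to 0.04). No paired analysis was possible because each group has 1 sample. Dim members are limited by their signal over background.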
